A study of Homo sapiens with 21 samples.

Results

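The RAB genes examined here are those whose symbol is RAB followed by a number and, in some, a letter and a further digit. By this rule on the symbol, 53 of the 18322 genes with at least 1 HNRNPK PAR-CLIP cluster were RAB genes, and 2365 of the 778762 clusters lay in them. All 53 are protein-coding genes in GENCODE v44 lifted to GRCh37, where RAB7L1 is listed as RAB29. A further 9 protein-coding genes of that annotation fit the rule and had no cluster in any library: RAB3A, RAB6B, RAB6C, RAB6D, RAB19, RAB25, RAB39B, RAB41 and RAB44. PAR-CLIP finds where a protein touches RNA in living cells. 4-thiouridine built into the RNA crosslinks to the protein under ultraviolet light and is then read as C in place of T, and reads with such changes are grouped into clusters. The 4 libraries came from the cytoplasmic and the nuclear fraction of parental MDA-MB-231 cells, a cell line from a triple-negative breast cancer, and of a *KRT19* KO derivative made with CRISPR/Cas9, with 1 library per group. With single libraries no difference between groups could be set against replicate spread, so none was tested. *KRT19* itself had 1 cluster of 7 reads in the parental cytoplasmic library, 1 of 5 reads in the *KRT19* KO cytoplasmic library and none in the nuclear libraries, too few to check the genotype.

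RAB proteins are small GTPases that switch between a GDP-bound form held in the cytosol and a GTP-bound form on membranes, where they recruit the effectors that bud, move, tether and fuse vesicles. Exchange factors switch them on, GTPase-activating proteins switch them off, and a C-terminal lipid anchor attaches them to membranes. HNRNPK is an RNA-binding protein whose KH domains bind C-rich stretches of single-stranded RNA, and it moves between nucleus and cytoplasm.

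The sites that carried the RAB signal in every library are shown first, because they allow the 4 libraries to be compared at the same place. Overlapping clusters on the same strand formed 1664 RAB sites, of which 48 had a cluster in all 4 libraries. Among these, 7 lay in 3'UTRs, 38 in introns and 3 in transcripts of RAB1A classed as processed transcripts. Stretches of 30 nt from 6 of the 3'UTR sites and from the intron site with the most reads are given 5′ to 3′ on the strand of the gene, as T for U. Capitals mark the C-rich motif, which is any of the words TTCCC or TCCCC or TACCC or ATCCC or ACCCC or AACCC.
RAB7A, chr3:128532316-128532345, plus strand: taggccttcaacacaaTTCCCCtctcctct
RAB7A, chr3:128533411-128533440, plus strand: ctttttcctcttTTCCCCacccatcTCCCC
RAB27B, chr18:52557733-52557762, plus strand: ctaaatcatatttcTTCCCtccaaatttca
RAB12, chr18:8638446-8638475, plus strand: tccaaattattatatttcattcatTACCCC
RAB8B, chr15:63559114-63559143, plus strand: atttagttctcaatctttaaaaaccacatt
RAB18, chr10:27828363-27828392, plus strand: atctttacatataaaaacctcacattctac
RAB10 intron, chr2:26285226-26285255, plus strand: cATCCCCtccTCCCCaaacaaacacaacta

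The RAB7A site nearest to the stop codon, 97 nt into a 3'UTR of 1376 nt, held 3484 reads in the parental cytoplasmic, 5324 in the *KRT19* KO cytoplasmic, 243 in the parental nuclear and 100 in the *KRT19* KO nuclear library. The distal RAB7A site, 1177 nt from the stop codon, held 2323, 3261, 206 and 346 reads in the same order. Both had more reads in the cytoplasm, and the order of the nuclear libraries was opposite at the 2 sites. The RAB27B site held 2058, 1854, 113 and 57 reads and the RAB12 site 1409, 1637, 85 and 88. The RAB8B and RAB18 sites, with 515, 708, 19 and 20 reads and 100, 191, 21 and 23 reads, did not hold the motif. The intron site of RAB10 held 121, 137, 179 and 130 reads, which scaled to library size (RPM, defined below) are 21.8, 22.0, 50.6 and 39.97, with both nuclear libraries above both cytoplasmic ones. Of the 48 sites, 10 lay in RAB7A and 7 in RAB2A.

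The libraries held 5551612, 6216226, 3537577 and 3252800 reads in clusters, in the order parental and then *KRT19* KO cytoplasm, followed by parental and then *KRT19* KO nuclei. Values listed without their libraries below keep this order. Unique reads made up 19.0 to 45.6% of them. Intervals below cover counting error only. Those from read counts take each read as independent and are too narrow where reads are copies of each other. The mesenchymal genes VIM, CD44, AXL and CAV1 had clusters in every library, whereas the epithelial genes GATA3, CDH1 and ELF3 had 0 to 2 clusters per library. The parental cytoplasmic library held 112 stretches with at least 10 of its clusters and none of the other 3 libraries, 5206 clusters in all, against 3 to 7 such stretches in the others. One of them, chr17:39874416-40278897, covers the RAB5C 3'UTR, and RAB5C was the only RAB gene touched. RAB5C values are therefore given apart. This library also had no cluster outside the assembled chromosomes, against 232, 269 and 221 in the others. Whether it was processed in another way was not tested, which bears on every gene or site below with no cluster listed in parental cytoplasm.

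RAB genes took 0.686% (95% Wilson interval 0.679 to 0.693%) of the reads in the parental cytoplasmic library and 0.829% (0.822 to 0.836%) in the *KRT19* KO cytoplasmic library. The nuclear shares were 0.305% (0.299 to 0.311%) for parental and 0.302% (0.296 to 0.308%) for *KRT19* KO. The cytoplasmic shares lay above both nuclear ones, while the nuclear intervals overlapped. Among 3'UTR reads alone the order of the cytoplasmic libraries was the opposite. As a share of 3'UTR reads, RAB 3'UTRs took 1.72% in parental and 1.54% in *KRT19* KO cytoplasm. The 3'UTRs of all genes together took 31.6% of parental cytoplasmic reads and 47.4% of those from *KRT19* KO cytoplasm.

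The signal was uneven among genes. The 5 RAB genes with the most reads accounted for 58.0% of RAB reads in parental cytoplasm, 53.8% in *KRT19* KO cytoplasm, 43.0% in parental nuclei and 51.0% in *KRT19* KO nuclei. Clusters were present in all 4 libraries for 36 of the 53 genes and in only 1 library for 7. Levels are given as RPM, the reads of a gene per 1000000 reads in clusters of the library. RPM was not divided by the abundance of the RNA, so it is a share of reads and not binding per transcript. On this scale RAB7A led every library.

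**Figure D1:**
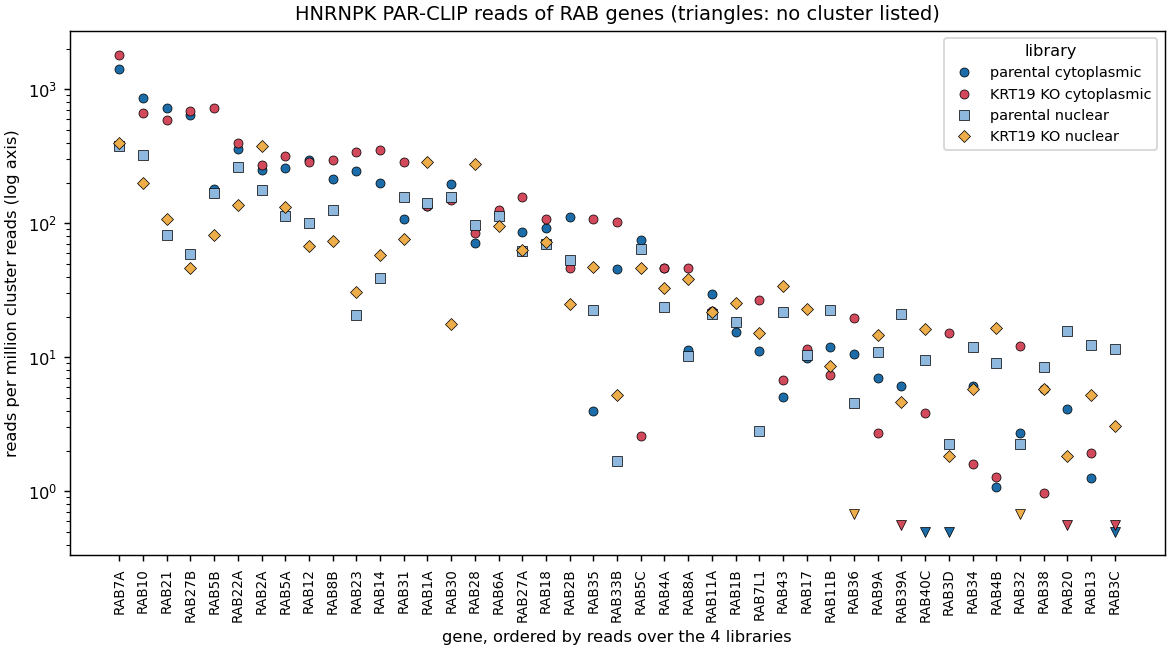
RPM (log axis) of the 43 RAB genes with at least 50 reads over the 4 libraries, 1 point per library, with triangles where no cluster was listed. RAB7A is at the top in every library, and RAB33B, RAB23 and RAB27B show wide gaps between the cytoplasmic and the nuclear points.

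Among RABs of the late endosome and lysosome, RAB7A, which directs fusion of late endosomes with lysosomes, had 1408 RPM in parental cytoplasm, 1800 RPM in *KRT19* KO cytoplasm, 379 RPM in parental nuclei and 398 RPM in *KRT19* KO nuclei. RAB12, linked to the transport of receptors from recycling endosomes to lysosomes, had 295, 286, 101 and 67.6 RPM. The other 8 genes of the group were far lower, and RAB7L1 (RAB29), a partner of the kinase LRRK2, had 11.2, 26.9, 2.83 and 15.1 RPM. This group of 10 genes held 25.3% of RAB reads in parental and 25.7% in *KRT19* KO cytoplasm.

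Early and recycling endosome RABs formed the largest group, with 15 genes and 29.3% of RAB reads in parental and 34.7% in *KRT19* KO cytoplasm. RAB21, which acts in integrin trafficking, had 720, 589, 81.1 and 109 RPM. RAB22A had 361, 397, 263 and 138 RPM, and RAB14 had 201, 355, 39.0 and 57.8 RPM. The paralogs of RAB5, the regulator of early endosome fusion, did not share 1 pattern. RAB5A had 258, 319, 113 and 133 RPM. RAB5B had 181, 724, 169 and 81.8 RPM, with the *KRT19* KO cytoplasmic library standing apart from the other 3. RAB5C had 75.3, 2.57, 63.9 and 46.4 RPM, and here the low library was the *KRT19* KO cytoplasmic one.

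RABs of transport to the cell surface were led by RAB10, which acts in exocytic delivery, with 856, 663, 323 and 201 RPM. Its relative RAB8B had 215, 296, 126 and 73.8 RPM, and RAB8A had 11.3, 46.2, 10.2 and 38.4 RPM, so both *KRT19* KO libraries were the higher ones for RAB8A. Of the 7 RABs of regulated secretion, RAB27B had 638, 685, 59.4 and 46.4 RPM and RAB27A 86.8, 157, 62.5 and 63.0 RPM, while RAB3B, RAB26 and RAB37 had 9, 13 and 6 reads over the 4 libraries together. RAB27A and RAB27B act in the docking of secretory vesicles and multivesicular endosomes.

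The 10 ER and Golgi RABs held 14.3 and 11.9% of RAB reads in the cytoplasm and 25.0 and 31.0% in the nuclei, in the order parental and *KRT19* KO. RAB2A, which works between the ER and the Golgi, had the most clusters of any RAB gene, 209 over the 4 libraries, with 251, 274, 179 and 377 RPM. RAB1A, needed for ER to Golgi traffic, had 135, 134, 142 and 286 RPM, with the *KRT19* KO nuclear library above the other 3. RAB30 had 196, 148, 157 and 17.8 RPM and was low in that same library. Among the remaining genes, RAB23, a regulator of Hedgehog signalling, had 244, 342, 20.6 and 30.7 RPM, and RAB28, found at cilia, had 71.3, 85.3, 97.2 and 279 RPM. The 3 RAB40 genes, which carry a SOCS box, summed to 1.98 to 26.7 RPM per library.

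In the cytoplasm the reads of RAB genes lay chiefly in 3'UTRs. The share was 79.1% (78.7 to 79.5%) of RAB reads in parental and 88.2% (87.9 to 88.5%) in *KRT19* KO cytoplasm, against 17.9% (17.2 to 18.7%) and 15.7% (14.9 to 16.4%) in the nuclei. Counted by cluster, 30.6% (27.2 to 34.3%) of RAB clusters in parental cytoplasm and 39.3% (35.6 to 43.2%) in *KRT19* KO cytoplasm were in 3'UTRs, and 9.39% (7.23 to 12.1%) and 9.48% (7.28 to 12.3%) in the nuclei. Of all clusters, 10.7, 16.0, 3.86 and 4.05% were in 3'UTRs, but 17.8 to 24.7% of them had no annotation, while every RAB cluster had one. Counted only among clusters in 3'UTRs, introns, coding sequence and 5'UTRs, the 3'UTR shares were 31.0% (27.5 to 34.7%), 40.1% (36.3 to 44.03%), 9.70% (7.48 to 12.5%) and 9.79% (7.52 to 12.6%) for RAB genes and 14.3, 22.6, 5.28 and 5.98% over all genes, each of the latter below the RAB interval. Introns held 86.5 and 86.6% of RAB clusters in the nuclei. Coding sequence held 18, 25, 4 and 3 RAB clusters.

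**Figure D2:**
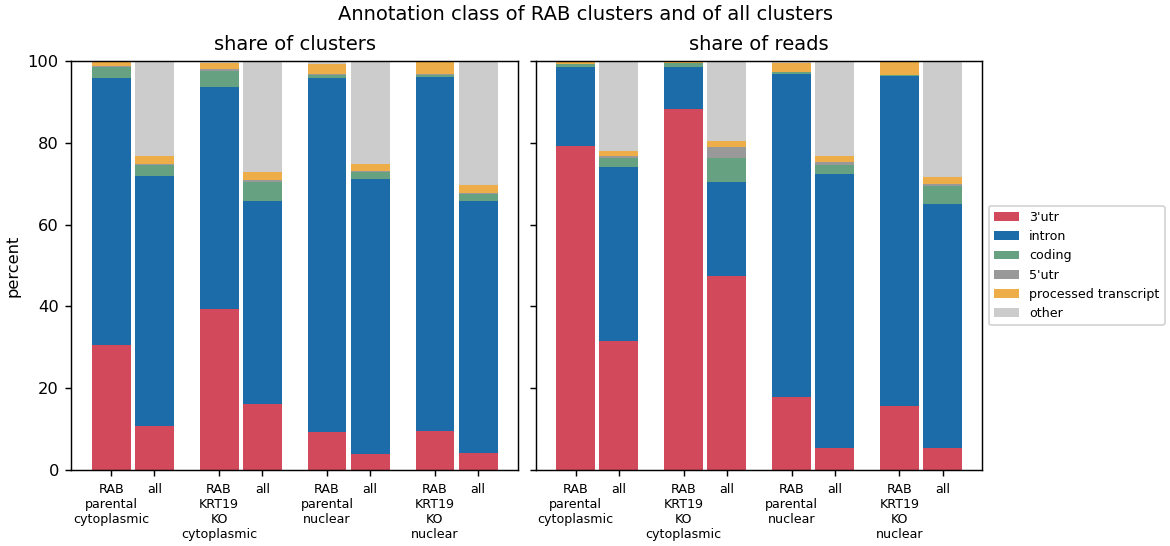
Share of clusters (left) and of reads (right), in percent, by annotation class for RAB genes and for all genes in each of the 4 libraries. In RAB genes 3'UTRs fill 79.1 and 88.2% of reads in the cytoplasmic libraries and 17.9 and 15.7% in the nuclear ones.

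Per length, the RAB7A 3'UTR stood first with 883 RPM per kb of 3'UTR in parental and 1245 RPM per kb in *KRT19* KO cytoplasm. On the same scale RAB10 had 305 and 238 RPM per kb, RAB5A had 140 and 195 RPM per kb, and RAB12 had 236 RPM per kb in *KRT19* KO cytoplasm. RAB21, which followed RAB7A and RAB10 in total reads, had 45.3 and 36.7 RPM per kb over a 3'UTR of 14613 nt. Its 3'UTR clusters all lay within 5222 nt of the stop codon, so these values depend on the annotated length. Within a 3'UTR the reads were concentrated. In parental cytoplasm the cluster with the most reads held 1409 of 1409 3'UTR reads of RAB12, 898 of 1052 of RAB5A, 1133 of 1344 of RAB23 and 2907 of 3672 of RAB21. RAB5B was spread more widely, with 251 of 771 reads in its top cluster. RAB 3'UTR clusters lay at a median of 1393, 1460, 1305 and 1335 nt from the stop codon, and the last of 3 equal parts of the 3'UTR held the fewest clusters in the cytoplasm, 17.6 and 18.4%. By reads the last part held 24.8 and 18.3% there, and the middle part 21.9 and 33.5%. These parts also depend on the annotated lengths. A 3'UTR cluster was listed for 34, 33, 23 and 24 RAB genes, and 28, 27, 3 and 9 genes had most of their reads there.

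Some of the highest 3'UTR sites did not contain the motif, and they are shown beside others that did. Each stretch comes from the 3'UTR site with the most reads of its gene, with the same use of capitals.
RAB21, chr12:72180077-72180106, plus strand: catttatattctttcaaatcaaatctttat
RAB31, chr18:9860567-9860596, plus strand: attcaaattctattaccattctaactttca
RAB10, chr2:26359890-26359919, plus strand: tttttattttAACCCtctttaattcttatt
RAB5B, chr12:56387961-56387990, plus strand: aaacacacacatTTCCCCcttcctTTCCCa
RAB35, chr12:120534158-120534187, minus strand: attaaattcctcacaattattttctTTCCC

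The C-rich motif was present in 28% (24.7 to 31.6%) of RAB clusters in parental cytoplasm, 31.5% (27.9 to 35.2%) in *KRT19* KO cytoplasm, 38.3% (34.3 to 42.4%) in parental nuclei and 33.3% (29.4 to 37.4%) in *KRT19* KO nuclei. Over all clusters the shares were 29.8, 30.1, 32.9 and 33.6%. The parental nuclear share of RAB clusters lay above that of all clusters by more than counting error, and the other 3 did not. RAB clusters were rich in T and A, with 34.2 to 36.6% T, 28.5 to 31.3% A, 25.1 to 28.7% C and 6.04 to 8.60% G.

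Sites found in more libraries held the motif more often. Of RAB sites with a cluster in 1 library, 23.7% (21.4 to 26.2%) held it, of those in 2 libraries 38.3% (33.2 to 43.7%), in 3 libraries 40.4% (31.8 to 49.5%) and in all 4 libraries 68.8% (54.7 to 80.1%). Over all sites the shares were 25.5, 36.2, 46.1 and 56.8%, and the interval of RAB sites in all 4 libraries included the last of these. The RAB sites in 4 libraries also had a median of 129.5 reads and 32 nt, against 9 reads and 27 nt for those in 1 library, and the part of depth and length in this order was not tested.

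**Figure D3:**
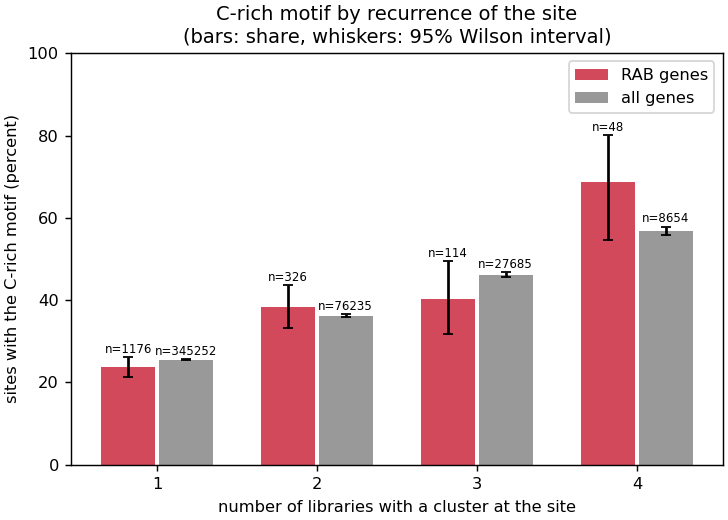
Share of sites with the C-rich motif, in percent with 95% Wilson intervals, by the number of libraries with a cluster at the site, for RAB genes and for all genes. In RAB genes the share goes from 23.7% of 1176 sites in 1 library to 68.8% of 48 sites in all 4.

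Clusters of the cytoplasmic libraries coincided more by reads than by number. Of the parental cytoplasmic RAB clusters, 36.8% (33.2 to 40.5%) shared 1 nt or more with a *KRT19* KO cytoplasmic cluster, and these held 82.7% of the RAB reads. In the other direction 38.2% (34.5 to 42.1%) overlapped, with 74.8% of reads. Of all clusters 25.5 and 28.9% overlapped, with 54.0 and 60.9% of reads. Between the nuclear libraries the RAB shares were lower, 23.6% (20.3 to 27.4%) of parental and 24.3% (20.9 to 28.1%) of *KRT19* KO clusters. Of all clusters 18.9 and 19.0% overlapped there, so the nuclear pair was lower over all clusters too. Among 3'UTR clusters alone, the cytoplasmic RAB shares were 51.3% (44.4 to 58.1%) of parental and 41.2% (35.2 to 47.5%) of *KRT19* KO clusters. Over all genes these 3'UTR shares were 48.0 and 36.1%, each within the RAB interval.

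The next comparison asks how RAB reads differed between *KRT19* KO and parental cytoplasm. The paper reports less cytoplasmic HNRNPK in *KRT19* KO cells. RPM is a share within each library, so higher or lower RPM does not show total binding or binding per transcript. A gene entered with at least 50 reads over both libraries, and it was counted as higher or lower from a 2-fold difference in RPM, with 0.5 reads added to each count. Of 35 RAB genes, 8 (22.9%) were higher and 3 (8.57%) lower in *KRT19* KO cytoplasm. Among all 9378 genes, 20.5% were higher and 22.3% lower. The share of RAB genes that were higher was thus near that of all genes, and the share that were lower was smaller. Without RAB5C, 2 of 34 were lower.

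RAB35, which acts in fast recycling from endosomes to the surface, had 22 reads in parental and 668 in *KRT19* KO cytoplasm, 27.1-fold higher in RPM (17.8 to 43.6 by counting error). Its 3'UTR site on chromosome 12, 120534153 to 120534188, held 542 of the 668 reads. No parental cytoplasmic cluster was listed there, although the parental nuclear library had 20 reads and the *KRT19* KO nuclear library 58 at the same place. Without that site the fold was 5.11. RAB5B was 4.0-fold higher (3.73 to 4.29), with 1005 and 4500 reads. Its top site held 1718 reads in *KRT19* KO cytoplasm, none listed in parental cytoplasm, and 48 and 23 in parental and *KRT19* KO nuclei, and without it RAB5B was 2.47-fold higher. A further RAB5B site, on chromosome 12 from 56387458 to 56387516, held 533 reads in *KRT19* KO cytoplasm and 127 in parental nuclei, with no cluster listed in the other libraries. Elsewhere in these 3'UTRs parental cytoplasm had 12 clusters for RAB5B and 2 for RAB35.

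RAB31, an endosomal relative of RAB5 and RAB22A, was 2.70-fold higher (2.46 to 2.97), with 593 and 1796 reads, and remained 2.37-fold higher without its top site. RAB8A was 4.07-fold higher (3.09 to 5.43), RAB32 4.52-fold (2.58 to 8.48), RAB33B 2.27-fold (1.96 to 2.64) and RAB7L1 2.41-fold (1.79 to 3.27). RAB7L1 was 1.18-fold higher without its top site. RAB3D, a RAB of secretory granules, had 95 reads in *KRT19* KO cytoplasm and was listed at 0 in parental cytoplasm. A listed 0 means that no cluster was called, not that no read was present, since the smallest cluster held 5 reads.

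RAB2B, a Golgi relative of RAB2A, was 2.40-fold lower in *KRT19* KO cytoplasm (2.08 to 2.77), with 621 and 290 reads. A single 3'UTR site held 458 of the parental reads, and no *KRT19* KO cytoplasmic cluster was listed there. Without that site RAB2B was 1.59-fold higher. RAB9A, which acts from late endosomes to the trans-Golgi network, had 39 and 17 reads and was 2.57-fold lower (1.42 to 4.84), and 1.38-fold higher without 1 site. RAB11B had 66 and 46 reads, at 0.622 of the parental level, and was not counted as lower. RAB5C had 418 and 16 reads. Of the parental reads 347 lay in the stretch on chromosome 17 that no other library covered, also neither nuclear one. The 71 parental reads outside it left RAB5C 4.97-fold lower in *KRT19* KO cytoplasm (2.86 to 9.16). All 341 parental 3'UTR reads lay in the stretch, so these 71 were intron and coding reads. Introns of all genes held 42.3% of reads in parental and 23.0% in *KRT19* KO cytoplasm. The part of this difference in the RAB5C fold was not tested.

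**Figure D4:**
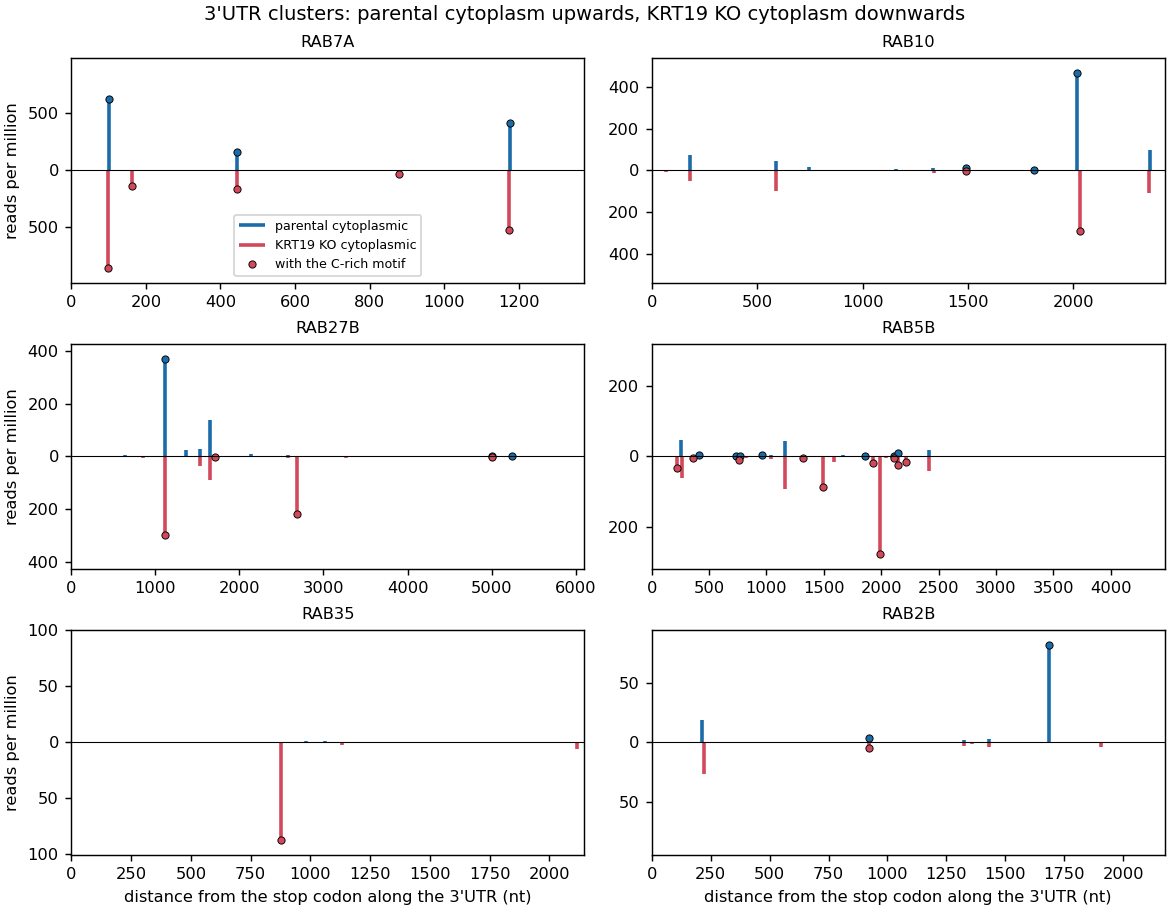
3'UTR clusters of 6 RAB genes by distance from the stop codon (nt), with RPM upwards for parental and downwards for *KRT19* KO cytoplasm and dots on clusters with the C-rich motif. The main sites of RAB7A, RAB10 and RAB27B stand in both libraries, while the highest sites of RAB5B and RAB35 stand only in *KRT19* KO and that of RAB2B only in parental cytoplasm. A further RAB27B site of 219 RPM also stands only in *KRT19* KO cytoplasm. So does a RAB7A site of 139 RPM, directly beside its highest site.

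Counts were also made from 3'UTR reads alone, scaled to the 3'UTR reads of the library, which changes both the reads counted and the scale. By this measure 7 of 29 RAB genes were higher and 2, RAB2B and RAB5C, were lower, against 26.5% and 20.3% of all 4788 genes. Without RAB5C, 1 of 28 was lower. RAB9A, with 28 and 5 3'UTR reads, did not reach the filter of 50. RAB7A was 1.28-fold higher (1.24 to 1.32) in RPM of all reads, but its 3'UTR was at 0.941 of the parental level among 3'UTR reads. RAB27B likewise went from 1.07-fold to 0.755 of the parental level, and RAB10 from 0.775 to 0.520. RAB35, RAB5B, RAB8A, RAB31 and RAB7L1 were at least 2-fold higher by both measures.

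**Figure D5:**
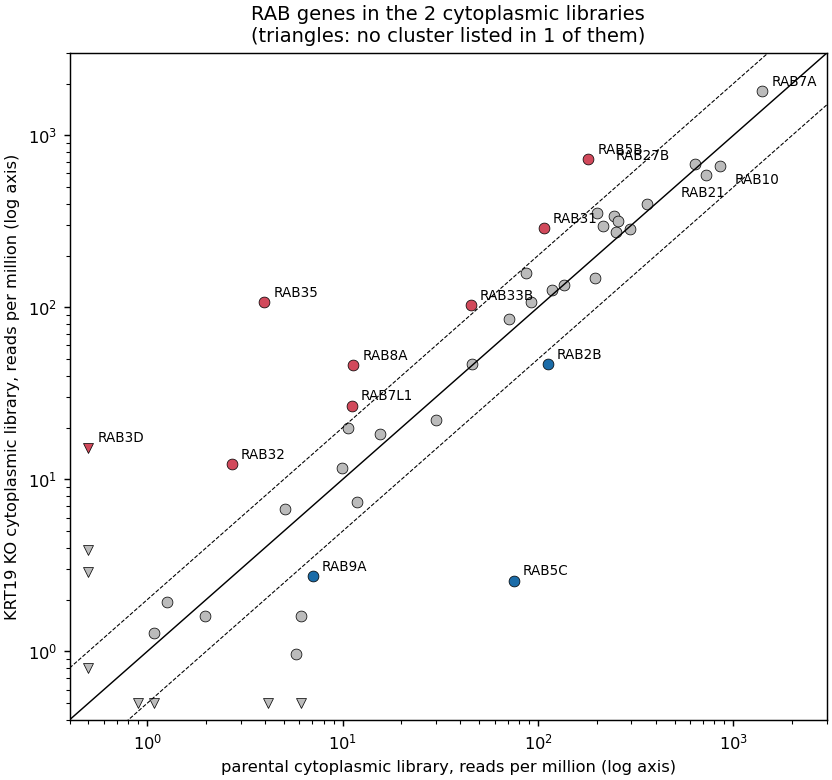
RPM of each RAB gene in parental (x) and *KRT19* KO (y) cytoplasm, both on log axes, with the line of equality, dashed lines at 2-fold, colour for genes counted as higher or lower and triangles where 1 library listed no cluster. Of 35 genes with at least 50 reads, 8 lie above the upper dashed line and 3 below the lower one.

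In the nuclei, 7 of 38 RAB genes (18.4%) were higher and 10 (26.3%) lower in *KRT19* KO, against 14.3% and 18% of all 9371 genes. With the median gene ratio as the scale, which moved values by 0.10 on the log2 scale, 7 were higher and 6 lower, against 16.3% and 16.1% of all genes. RAB28 had 344 reads in parental and 908 in *KRT19* KO nuclei, all in introns, and was 2.87-fold higher (2.53 to 3.26). RAB8A was 3.78-fold higher (2.59 to 5.63), and RAB7L1 5.33-fold (2.67 to 11.8). RAB17, RAB2A, RAB35 and RAB1A were higher with 37 and 75, 632 and 1226, 80 and 154, and 504 and 930 reads. RAB30 had 556 and 58 reads and was 8.81-fold lower (6.72 to 11.8), with 31 clusters in parental and 6 in *KRT19* KO nuclei. RAB20, RAB39A and RAB3C were lower with 56 and 6, 74 and 15, and 41 and 10 reads, and RAB11B, RAB13, RAB2B, RAB5B, RAB31 and RAB34 were 2.03 to 2.63-fold lower.

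Between fractions, 12 of 38 RAB genes (31.6%) were at least 2-fold higher in parental cytoplasm than in parental nuclei and 5 (13.2%) lower, against 18.7% and 34.8% of all genes. In *KRT19* KO cells, 19 of 37 (51.4%) were higher and 7 (18.9%) lower, against 24.3% and 41.2%. The median log2 ratio of RAB genes was 0.35 for parental and 1.18 for *KRT19* KO, and that of all genes tested -0.54 and -0.62. With the median gene ratio as the scale, 18 RAB genes were higher and 5 lower for parental, against 25.5% and 20.4% of all genes, and 24 were higher and 6 lower for *KRT19* KO, against 32.5% and 26.1%. From intron reads alone, scaled to the intron reads of the library, 3 of 33 RAB genes were higher in parental cytoplasm and 10 lower, against 8.77% and 26.6% of all genes, and 1 of 28 was higher and 6 lower in *KRT19* KO, against 12.6% and 24.8%. The RAB medians were -0.36 and -0.30 on the log2 scale, and those of all genes -0.36 and -0.29. Without RAB5C, 6 of 36 were lower in *KRT19* KO cytoplasm by all reads and 5 of 27 by intron reads. These comparisons share each library with a comparison above, so their counts are not separate evidence.

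RAB33B, a Golgi RAB that binds the autophagy factor ATG16L1, was 26.7-fold higher in parental cytoplasm than in parental nuclei (12.1 to 73.3), with 251 and 6 reads, and 19.6-fold higher in the *KRT19* KO line (12.2 to 33.9), with 638 and 17 reads. RAB27B was 10.7-fold higher in the parental and 14.7-fold higher in the *KRT19* KO line, and RAB23 11.8-fold and 11.1-fold. RAB21 was 8.87-fold and 5.42-fold higher. RAB36 had 123 reads in *KRT19* KO cytoplasm and no cluster listed in *KRT19* KO nuclei. RAB43, a Golgi RAB, was lower in the cytoplasm of both, with 28 and 77 reads in the parental line and 42 and 110 in the *KRT19* KO line. RAB13 and RAB20 were lower in parental cytoplasm, with 7 and 44, and 23 and 56 reads. RAB5C, RAB4B and RAB9A were lower in *KRT19* KO cytoplasm, with 16 and 151, 8 and 54, and 17 and 48 reads. RAB28 went from 396 and 344 reads in the parental line to 530 and 908 in the *KRT19* KO line, where it was 3.27-fold lower in cytoplasm. RAB35 was at 0.175 of the nuclear level for parental and at 2.27 of it for *KRT19* KO.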

How the data were processed

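HNRNPK PAR-CLIP was measured in 4 libraries, 1 per group. The 17 RNA-seq samples were not analysed here. According to the paper, the authors collapsed identical sequences while these still carried molecular barcodes (UMIs), to remove potential PCR duplicates. They used hg19 as the genome and PARpipe with PARalyzer for cluster calls. The submitters' processing notes name bcl2fastq 2.20.0. The authors deposited raw counts of reads, unique reads and T-to-C reads per cluster, with position, sequence, annotation class and gene name, without normalization. The smallest cluster had 5 reads, so weaker binding is not listed. Any PCR copies that remained after this removal are not independent.

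All 2365 RAB cluster sequences equalled GRCh37 at their positions. Reads were summed by gene and divided by the reads in clusters of the library. Shares have 95% Wilson intervals and folds exact conditional intervals. Clusters of a strand that shared 1 nt or more formed a site. 3'UTR lengths were those of the canonical transcript.

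Genes were named by rule: the most reads, the most cytoplasmic 3'UTR reads, the most clusters, and the 4 largest rises and falls of each comparison. Others were named after their values were seen, to account for counts. Gene lists and members were chosen with earlier results of these data known. Scripts were tested on simulated data. Alternatives covered filters, scales, motifs and overlaps. Python 3.11.15, pandas 2.3.3 and scipy 1.17.1 were used.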

Additional observations from a re-analysis of the deposited data

Results flagged for a closer look

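RAB5B differed between *KRT19* KO and parental cells in opposite directions in the 2 fractions. The log2 ratio was 2.0 in the cytoplasm and -1.05 in the nuclei, a difference of 3.05. RAB31 did the same, with log2 ratios of 1.43 and -1.04 and a difference of 2.47. With the median gene ratio as the scale, the nuclear ratios of both genes stayed negative but fell short of 2-fold. RAB35 differed between fractions in opposite directions in the 2 cell lines, with cytoplasm to nucleus log2 ratios of -2.49 for parental and 1.18 for *KRT19* KO, a difference of -3.67. The highest *KRT19* KO cytoplasmic sites of RAB5B and RAB35 had no cluster listed in parental cytoplasm. Without those sites the *KRT19* KO to parental folds in cytoplasm were 2.47 and 5.11. With 1 library per group none of these differences was tested.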

How the results depend on the processing

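No paired analysis was possible because each PAR-CLIP group has 1 library, and for the same reason no replicate could be left out. Values below are in the order parental and then *KRT19* KO cytoplasm, followed by parental and then *KRT19* KO nuclei. Of 126 values under other settings, 70 stayed within the interval of the main value, or within 1.5 times for a count, and 56 did not; the causes were not tested. The share of reads in RAB genes was 0.570 and 0.785% in the cytoplasmic libraries for reads with a T-to-C change, 0.751, 0.877, 0.312 and 0.326% for unique reads, 0.743, 0.886, 0.312 and 0.318% for clusters of at least 10 reads, 0.624, 0.744, 0.298 and 0.291% without the RAB cluster with the most reads, 1.72, 1.54, 1.02 and 0.870% of 3'UTR reads, and 0.728 and 0.846% in the cytoplasmic libraries without the cluster with the most reads of the library. The 3'UTR share was 79.1, 88.2, 17.9 and 15.7% weighted by reads, 35.2 and 47.1% in the cytoplasmic libraries for clusters of at least 10 reads, and 40.2, 46.2 and 12.4% in the first 3 libraries for at least 2 conversion locations. The motif share was 37.7, 42.9, 50.4 and 43.1% for CCC, 17.1, 18.6, 27.1 and 22.3% for TTCCC or TCCCC, and 32.3, 35.5 and 38.3% in all but the parental nuclear library for clusters of at least 10 reads. RAB genes lower in *KRT19* KO cytoplasm numbered 9 with no filter and 1 for T-to-C reads. In the nuclei 4 were higher with a filter of 200 reads and 12 with none, and 4 were lower with a filter of 200 reads, 6 with the median gene ratio as the scale and 3 for T-to-C reads. RAB genes lower in cytoplasm than nucleus numbered 0 and 11 in parental and 2 and 18 in *KRT19* KO cells, with a filter of 200 reads and with none. From intron reads alone, 3 RAB genes were higher and 10 lower in parental cytoplasm than nuclei, and 1 was higher in *KRT19* KO. At least 10 reads per cluster gave overlaps of 42.4% of *KRT19* KO with parental and 44.5% of parental with *KRT19* KO cytoplasmic clusters. The 3'UTR and intron measures, the stretches of 1 library and the cluster with the most reads were chosen as alternatives after seeing the data.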

Other observations

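Of 114 genes listed for the RAB cycle, 108 had a cluster. In *KRT19* KO against parental cytoplasm, 88 of them passed the filter of 50 reads, with 16 at least 2-fold higher and 20 lower. Of all genes 20.5% were higher and 22.3% lower, so these counts were near the background. Their median log2 ratio was -0.32, against -0.08 for all genes. Among the GTPase-activating proteins, which switch RABs off, 2 of 27 were higher and 11 lower, against the same 20.5% and 22.3%. These counts are from all reads, whose make-up differed between the libraries. Over all genes, introns held 42.3% of reads in parental and 23.0% in *KRT19* KO cytoplasm, and 3'UTRs 31.6 and 47.4%. The part of this difference in the counts was not tested. RABGAP1L had 555 reads in parental and 92 in *KRT19* KO cytoplasm, TBC1D5 had 1198 and 518, and TBC1D8 had 783 and 351, whereas TBC1D20 had 125 and 461. In the nuclei 3 of 26 were higher and 2 lower, against 14.3% and 18% of all genes. Of the 4 prenylation and extraction genes tested in the cytoplasm, CHML, an escort protein that presents RABs for prenylation, had 2285 and 5730 reads, RABGGTB, a subunit of the RAB prenylating enzyme, had 55 and 201, and GDI2, which extracts GDP-bound RABs from membranes, had 786 and 356. Of the exchange factors, which switch RABs on, 5 of 22 were higher and 3 lower, and of the effectors 7 of 35 were higher and 5 lower, with the higher shares near the 20.5% of all genes.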
